A study of Mus musculus with 32 samples.

Results

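Hba-a1, Hba-x, Alas2 and Slc4a1 are genes of the red cell lineage. They were taken as all probes of the array whose annotation gave 1 of these 4 symbols, which found 9 of 20794 probes and 4 of 9030 named genes. Hba-a1 had 6 probes and the other genes had 1 each. The probes were read on 32 cDNA arrays with 2 colours: eye had 12, brain 12 and heart 8. Each array set RNA of an organ of sighted C3H mice against a pool of that organ from 6 control males, labelled C3H.pde6b-. The design text names 6 sighted males and calls their line the mutant C3H seh. Pde6b encodes a subunit of the rod phosphodiesterase, and its loss in C3H mice leads to early death of the rods. Sighted and control mice shared the C3H background and the sex. Their age is not given in the sources used here. The control mice behind the brain pool were those behind the heart pool, and others gave the eye pool. No probe was named Pde6b. The 4 rod genes measured, Sag, Cngb1, Rom1 and Guca1b, had replicate medians between 4.89 and 5.44 on the log2 scale in eye, higher in sighted RNA.

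Red cells carry oxygen with hemoglobin, a complex of alpha-type and beta-type globin chains that each hold a heme group. Hba-a1 encodes an adult alpha globin and Hba-x the zeta globin, an alpha-type chain of the embryo. Alas2 encodes the erythroid 5-aminolevulinate synthase, the first and rate-limiting enzyme of heme synthesis in red cell precursors. Slc4a1 encodes band 3, the chloride and bicarbonate exchanger and main membrane anchor of the red cell, and a shorter form of it is made in kidney. Globin RNA persists in reticulocytes, the youngest circulating red cells, so organs that are not freed of blood hold some of it. In RNA of a whole organ, fewer cells of a type and less RNA per cell cannot be told apart.

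Hba-x and Hba-a1 are neighbours on mouse chromosome 11, in the order Hba-x, Hba-a1, Hbq1b, Hba-a2 and Hbq1a in the RefSeq annotation of GRCm38.p6. Alas2 lies on chromosome X. The 250 bases before the annotated start of Hba-x, Hba-a1 and Alas2 are shown because these genes were lower together in eye. The RefSeq table matched 3 of the 4 genes, and Slc4a1 was not matched. The sequences are those of RefSeq (GRCm38.p6, plus strand) and run from chr11:32276350-32276599 for Hba-x, chr11:32283422-32283671 for Hba-a1 and chrX:150547167-150547416 for Alas2. Capitals mark the motif TGATAA, the motif CCAAT, the motif CACCC and the motif TATAA, each searched on both strands, and overlapping matches run together (GGGTG is CACCC on the other strand).
Hba-x: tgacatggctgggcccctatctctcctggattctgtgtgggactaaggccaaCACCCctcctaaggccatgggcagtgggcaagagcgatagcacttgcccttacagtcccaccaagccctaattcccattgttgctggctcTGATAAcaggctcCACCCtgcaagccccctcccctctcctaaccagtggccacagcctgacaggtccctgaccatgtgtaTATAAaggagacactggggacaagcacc
Hba-a1: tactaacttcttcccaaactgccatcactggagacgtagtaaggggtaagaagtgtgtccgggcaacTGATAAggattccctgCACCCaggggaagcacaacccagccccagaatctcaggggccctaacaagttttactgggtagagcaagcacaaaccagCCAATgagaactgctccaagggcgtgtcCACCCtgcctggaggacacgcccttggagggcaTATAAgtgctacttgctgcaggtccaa
Alas2: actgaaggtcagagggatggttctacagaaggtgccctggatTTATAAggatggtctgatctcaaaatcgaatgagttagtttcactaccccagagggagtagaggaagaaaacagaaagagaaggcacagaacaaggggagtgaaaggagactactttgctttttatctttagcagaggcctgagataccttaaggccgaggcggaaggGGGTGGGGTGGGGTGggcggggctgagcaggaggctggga
TGATAA, a form of the sequence read by GATA factors, was found once each in Hba-x and Hba-a1 and in 7.94% of 32851 promoter windows of this length. Other forms, such as AGATAA, were not searched over all windows and are not marked. The Alas2 window printed above holds TTATCT, which is AGATAA on the other strand. It thus lacks TGATAA but not every form of the GATA sequence. CACCC, the sequence read by KLF1 and its relatives, occurred 2 times each in Hba-x and Hba-a1 and 3 times in Alas2, and in 52.0% of all windows. TATAA was present in all 3 windows and in 22.8% of all. It began 28 bases before the start in Hba-x and 27 in Hba-a1, but 208 and 207 in Alas2. CCAAT was found only in Hba-a1 among these 3, and in 33.8% of all windows. These are matches of letters and not shown to be bound. The copy Hba-a2 had the same letters as Hba-a1 over 297 of 297 aligned bases, shifted by 3, of the full RefSeq windows, which run on past the start and are longer than the stretches printed. The adult alpha globin copies are near-identical in their transcripts as well, so a ratio named Hba-a1 here cannot be assigned to 1 of them.

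Values are given as log2 of sighted over control, so that a negative value means less of the RNA in sighted mice. No levels are known, only ratios within an organ. Arrays with consecutive numbers and opposite dyes were averaged to 1 replicate. This left 6 eye replicates, 6 brain replicates and 4 heart replicates. Which arrays come from the same mouse is not labelled, and the spread behind each p-value is that between these samples, with a technical share that is unknown. Each organ has a single control pool, so no test includes the spread between control mice. The direction of the ratio is likely, not stated: the medians of 4 rod genes as deposited lay between 5.23 and 5.76 on eye arrays whose sighted RNA carried Cy5 and between -5.66 and -4.30 on the others. The share of missing values was between 1.62 and 5.10% on eye arrays, 1.01 and 5.05% on brain arrays and 5.96 and 61.6% on heart arrays.

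In sighted eyes all 4 genes fell. Hba-a1 was 3.90-fold lower, Hba-x 3.45-fold, Alas2 2.33-fold and Slc4a1 1.34-fold, each in 6 of 6 replicates. In eye, limma called 26.7% of 15877 features at an adjusted p of 0.05, 10.9% as lower and 15.8% as higher. The features are 8564 named genes and 7313 probes without a name. The split moved with the dye: 3.12% were lower and 37.2% higher with sighted RNA in Cy5 only, against 20.8% lower and 3.39% higher with it in Cy3 only. With each array centred on its median, 15.2% were lower and 15.9% higher. Being lower in every replicate held for 12.5% of features. A mean log2 ratio at or under -1, which 3 of the 4 genes had, was found for 0.624% of features. The median over all features was 0.03.

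Hba-a1 had log2 ratios of -3.29, -3.27, -1.53, -1.56, -0.92 and -1.21 in eye replicates 1 to 6. Replicates 1 and 2 lay apart from the other 4, which did not overlap with them. The mean was -1.96 ± 1.05 (SD, n = 6), with a limma adjusted p of 0.00347. Of the 15877 features 3 had a lower mean. The spread between replicates was itself large: of 14878 features measured in every eye replicate, 59 (0.397%) had a larger SD, and the median SD was 0.192. Without replicates 1 and 2, a choice made after seeing the data, Hba-a1 had -1.31 and still passed (adjusted p 0.00244).

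Hba-x had -2.82, -2.95, -1.25, -1.56, -0.97 and -1.19 in the same replicates. The same replicates were lowest, and the mean was -1.79 ± 0.87 (SD, n = 6), with a limma adjusted p of 0.00229. Its SD was exceeded by that of 1.07% of features. Over the 12 eye arrays Hba-x differed from Hba-a1 by a root mean square of 0.318. The transcript of Hba-x is that of an embryonic globin, and whether its probe also binds the adult alpha globin transcripts was not tested. Without replicates 1 and 2 its mean was -1.24 (adjusted p 0.00168).

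Alas2 had -1.68, -1.85, -1.13, -1.22, -0.70 and -0.76. Replicates 1 and 2 were again the lowest, but the gap to the others was smaller than for the globins. The mean was -1.22 ± 0.47 (SD, n = 6), with a limma adjusted p of 0.000856, and -0.95 without replicates 1 and 2 (adjusted p 0.00453). Slc4a1 had -0.42, -0.53, -0.26, -0.45, -0.31 and -0.59, the smallest change of the 4 and the most even one. Its lowest value was in replicate 6, and replicates 1 and 2 did not stand apart. The mean was -0.43 ± 0.12 (SD, n = 6), with a limma adjusted p of 0.00182. Of all features, 82.3% had a larger SD.

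The values of Slc4a1 differed with the dye on these arrays, which were not centred. On eye arrays with sighted RNA in Cy5 its mean was -0.13, which did not pass (adjusted p = 0.273), and with sighted RNA in Cy3 it was -0.72. Alas2 had -1.20 and -1.24 in these orientations, Hba-x -1.56 and -2.01, and Hba-a1 -1.67 and -2.26. The globins and Alas2 were thus below 0 on every eye array, while Slc4a1 ranged from -1.09 to 0.11.

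**Figure D1:**
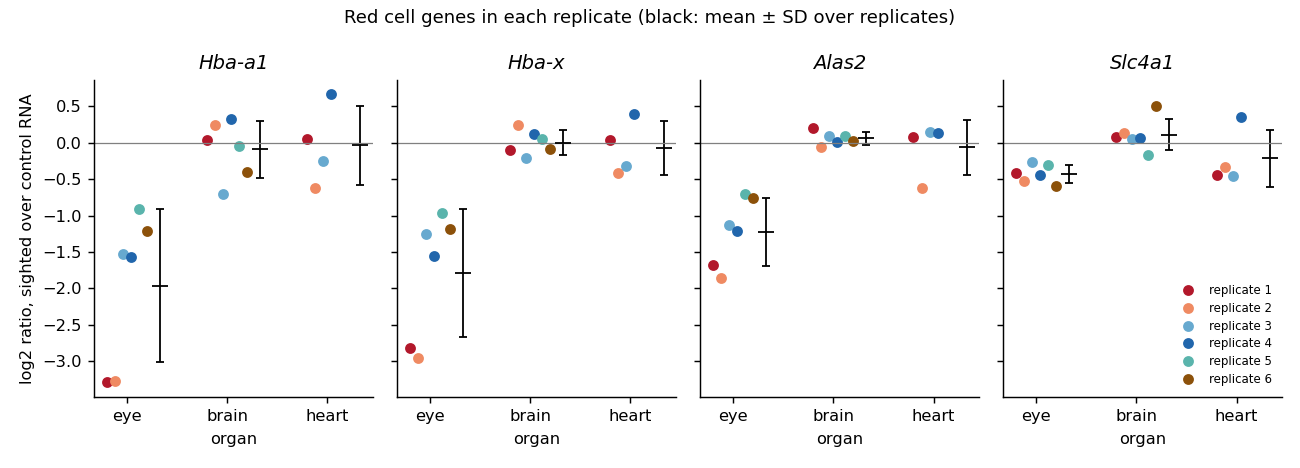
Log2 ratio of sighted over control RNA (vertical axis) for the 4 genes in each replicate of eye, brain and heart. Coloured points are replicates and the black bar is their mean ± SD. In eye every replicate lies below 0, from -3.29 to -0.26, while brain and heart replicates lie on both sides of 0.

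In brain none of the 4 genes passed. There limma called 0.00621% of 16114 features, and 4.11% had an unadjusted p under 0.05, which none of the 4 genes had. Hba-a1 had 0.03, 0.24, -0.70, 0.32, -0.05 and -0.41 in brain replicates 1 to 6, with a mean of -0.09 ± 0.39 (SD, n = 6; limma adjusted p = 0.960). Of these, replicates 3 and 6 were the low ones. The value of replicate 6 came from 1 spot: probe 15423 had -4.50 on array 12, where the other 5 probes lay between -0.24 and -0.04. Without that probe replicate 6 had -0.02 and the mean was -0.03 ± 0.35 (SD, n = 6). The value of replicate 3 came from all probes on both of its arrays, which lay between -0.90 and -0.54. With replicate 3 left out Hba-a1 had 0.03 and Hba-x 0.04 in brain, and neither passed (adjusted p = 0.993 and 0.981).

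Hba-x had -0.10, 0.24, -0.22, 0.12, 0.05 and -0.09 in brain, again lowest in replicate 3, with a mean of -0.0003 ± 0.17 (SD, n = 6). Alas2 had 0.19, -0.06, 0.10, 0.01, 0.09 and 0.03, with a mean of 0.06 ± 0.09 (SD, n = 6). In replicate 3, where Hba-a1 was lowest, Alas2 was above 0. Slc4a1 had 0.07, 0.13, 0.05, 0.06, -0.16 and 0.50, with a mean of 0.11 ± 0.22 (SD, n = 6). The 95% intervals of the mean ran from -0.41 to 0.22 for Hba-a1, from -0.17 to 0.17 for Hba-x, from -0.07 to 0.19 for Alas2 and from -0.09 to 0.30 for Slc4a1.

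In heart none of the 4 genes passed either. Limma called 0% of 12796 features there, with 7.98% at an unadjusted p under 0.05, and none of the 4 genes was among them. Hba-a1 had 0.05, -0.62, -0.25 and 0.66 in heart replicates 1 to 4, with a mean of -0.04 ± 0.54 (SD, n = 4). Hba-x had 0.04, -0.42, -0.32 and 0.40, with a mean of -0.08 ± 0.37 (SD, n = 4). Both globins were lowest in replicate 2 and highest in replicate 4. Alas2 had 0.08, -0.62, 0.15 and 0.13, with a mean of -0.07 ± 0.37 (SD, n = 4), and was also lowest in replicate 2. Slc4a1 had -0.45, -0.33, -0.45 and 0.36, with a mean of -0.22 ± 0.39 (SD, n = 4), and was highest in replicate 4. Replicate 4 holds array 7, with 61.6% of its values missing. The replicate medians of the rod, red cell membrane, clearance and leukocyte lists were highest there too, at 0.53, 0.43, 0.25 and 0.20. Those of the plasma protein, regulator and endothelium lists were lowest there, at -0.50, -0.13 and -0.12. The part of array 7 in the values of the 4 genes was not tested. Without replicate 4, Hba-a1 had -0.27, Hba-x -0.23, Alas2 -0.13 and Slc4a1 -0.41, and none passed. The heart intervals were wider, from -0.60 to 0.52 for Hba-a1 and from -0.67 to 0.24 for Slc4a1.

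The difference of the ratio between organs was tested in 1 limma fit over 12533 features. Eye minus brain was -1.87 ± 0.38 (SE) for Hba-a1, with an adjusted p of 0.00266. For Hba-x it was -1.79 ± 0.30 (SE; adjusted p 0.00052), and for Alas2 -1.28 ± 0.19 (SE; adjusted p 0.000143). Slc4a1 differed by -0.54 ± 0.14 (SE; adjusted p 0.016), and lost this call without replicate 1, 2 or 6, with an adjusted p of 0.0563, 0.0658 and 0.0914. Of all features, 12.3% were called in this contrast and 4.81% were called as lower in eye. With probe 15423 alone, Hba-a1 differed by -1.47 (adjusted p 0.0719).

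Eye minus heart was -1.92 ± 0.42 (SE; adjusted p 0.00399) for Hba-a1, -1.71 ± 0.34 (SE; adjusted p 0.0017) for Hba-x and -1.16 ± 0.21 (SE; adjusted p 0.000935) for Alas2. In this contrast 22.4% of features were called by limma and 9.47% were called as lower in eye. Slc4a1 did not pass, at -0.21 ± 0.16 (SE; adjusted p = 0.363). Brain minus heart passed for none of the 4 genes, with adjusted p between 0.242 and 0.957, against 2.68% of all features called. The brain and heart pools share their control mice, which the fit does not model.

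The 6 probes of Hba-a1 gave a check on the measurement. In eye their means lay between -2.01 and -1.89, and each passed limma on its own, with adjusted p between 0.00318 and 0.00503, where 11.1% of 19088 probes tested singly were called as lower. The probes share their target and are not replicates. On a given eye array the lowest and the highest of the 6 lay a median of 0.274 apart. The widest gap in eye was 1.47, on array 2, where probe 15560 had -4.85 and the others lay between -3.90 and -3.38. In heart the median gap was 0.68, and probe 15423 stood out on array 7, at 1.74 against -0.11 to 0.32 for the others. Probe 15435 stood out on array 5, at -1.76 against -0.47 to -0.13, and on array 3, at 0.41 against -1.06 to -0.64. Over the heart arrays it lay 0.715 to 0.90 from each other probe.

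Hba-a1 was also read array by array. Eye arrays 1 to 4 had -2.70, -3.88, -2.79 and -3.76, and arrays 5 to 12 had -1.27, -1.799, -1.50, -1.63, -0.63, -1.20, -1.11 and -1.32. On all 6 eye pairs the array with sighted RNA in Cy3 was the lower one, by 0.132 to 1.18. Brain arrays 5 and 6 had -0.77 and -0.64, the other arrays of brain between -0.09 and 0.36, apart from -0.88 on array 12 with its deviating spot.

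**Figure D2:**
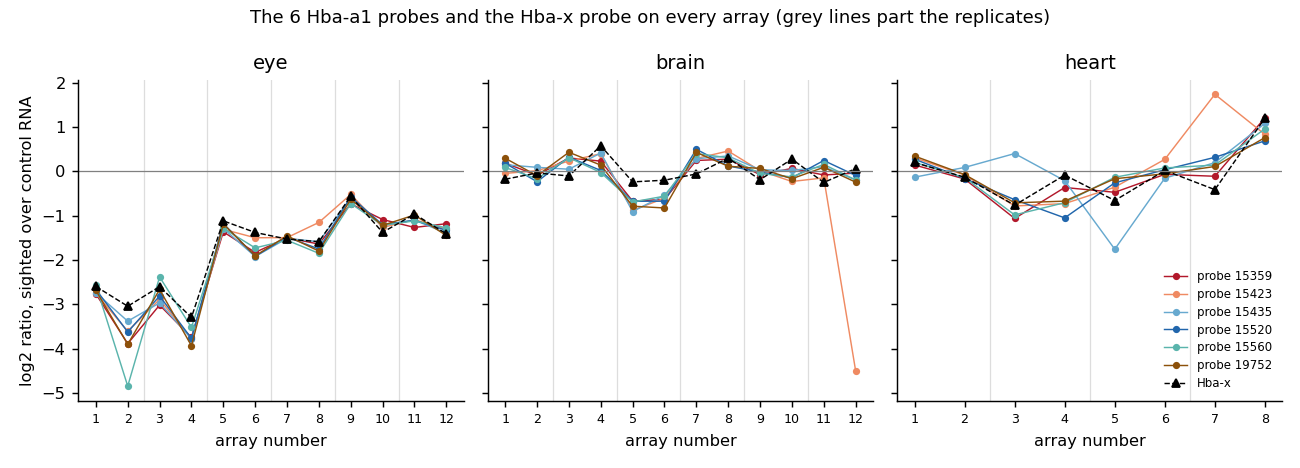
Log2 ratio of sighted over control RNA (vertical axis) on each array (horizontal axis) for the 6 Hba-a1 probes (coloured) and the Hba-x probe (black triangles). Lines only join the values of a probe. In eye the probes run together, with arrays 1 to 4 at or below -2.38 for every probe. Single spots leave the others at -4.50 in brain and at -1.76, 0.41 and 1.74 in heart, where the probes spread more.

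Other features were compared with each gene by the root mean square distance of their log2 ratios over the eye arrays. Of 16180 features measured on at least 10 eye arrays with Hba-a1, 13 (0.0803%) lay within 0.3 of it. The median distance over all features was 2.23. The 5 nearest named genes were Krt16, an epithelial keratin gene, at 0.111, Tap1, a peptide transporter gene of antigen presentation, at 0.14, H3f3a, a histone H3.3 gene, at 0.158, Ucma, a cartilage matrix gene, at 0.167, and Cdca8, a gene of the chromosomal passenger complex, at 0.185. The sixth named gene within 0.3 was C1qtnf6, at 0.24, and the other 7 features were probes without a name. Single probes of Hba-a1 lay 0.106 to 0.476 from each other in eye, with a median of 0.218 over 15 pairs. The 2 kinds of distance differ, since the features were set against the mean of the 6 probes and were chosen for being near.

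Brain and heart were not used to find these features. There the 5 nearest named genes lay 0.188 to 0.364 from Hba-a1 in brain and 0.22 to 0.454 in heart. C1qtnf6 lay 0.506 away in brain and 0.611 in heart. The median distance from Hba-a1 over all features was 0.539 in brain and 0.82 in heart, far below that in eye. In brain 9 of the 13 also lay within 0.3 of Hba-a1, as did 0.268% of 16433 features. In brain replicate 3, in which Hba-a1 had -0.70, the 13 ranged from -0.87 to -0.47. Of 16538 features 5.04% lay at or under the highest of the 13, a limit set by these features themselves. Krt16 had -0.79 there and Tap1 -0.79, against 0.31 and 0.29 in replicate 4. In heart 5 of the 13 lay within 0.3, as did 0.224% of 14304 features. All 13 were below 0 in heart replicate 2 and above 0 in replicate 4, from 0.29 to 0.77. How many of all features have these signs was not counted. Heart replicate 4 holds array 7, with 61.6% of its values missing. Each of the 6 named genes rested on 1 probe, and no value here shows that these probes read the gene they are named for. Of these 13 features, 8 carry a number within 200 of the median number of the Hba-a1 probes, as do 5 of the 6 Hba-a1 probes and 400 of all 20794 probes, a window chosen after the values were seen. The Alas2 probe, with number 15550, also lies in this window. What the numbers say of the layout of the array was not tested.

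**Figure D3:**
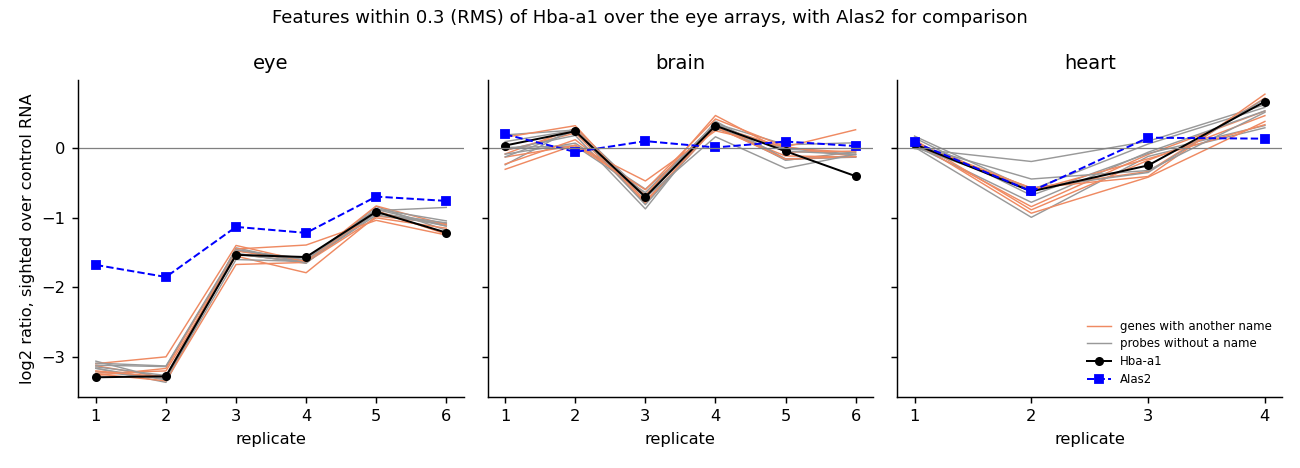
Log2 ratio of sighted over control RNA (vertical axis) in each replicate (horizontal axis) for Hba-a1 (black), the 13 features within 0.3 of it over the eye arrays (orange with another gene name, grey without a name) and Alas2 (blue). Lines only join the values of a feature. The 13 features follow Hba-a1 in eye, where that was the basis of the choice, and are low with it in brain replicate 3, while Alas2 is not.

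Hba-x had 9 features within 0.3 in eye, nearest among them Fbxo32, a muscle ubiquitin ligase gene, at 0.252. Tap1, Cdca8 and C1qtnf6 followed at 0.288, 0.291 and 0.295, and Krt16 lay at 0.303. None of the 9 lay within 0.3 of Hba-x in brain, where these 5 named genes lay 0.315 to 0.705 away, and 0.222 to 0.835 in heart. Alas2 had no feature within 0.3. Its nearest genes were Rhob, a small GTPase gene, at 0.313, Slc43a2, an amino acid transporter gene, at 0.352, Nup155, a nuclear pore gene, at 0.357, Junb, an AP-1 factor gene, at 0.362, and Bcas1, at 0.423. These lay 0.36 to 0.456 from Alas2 in brain and 0.397 to 0.921 in heart. Slc4a1 had 277 features within 0.3 (1.71%), and the nearest named ones were Tmem268, Rabgap1l, Hs1bp3, P3h2 and Tmem51, between 0.18 and 0.197 in eye, 0.454 to 0.638 in brain and 0.57 to 1.44 in heart. Within the set, Alas2 lay 0.971 from Hba-a1 over the eye arrays and Slc4a1 1.81.

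Other genes of the lineage were read from lists, which were chosen with earlier results of these data known. Of 8 heme synthesis and transport genes measured in eye, 5 fell and 1 rose, 62.5% lower against 10.9% of all features. The list's median was -0.27, against 0.03 for all features. Alas1, the form of the synthase used in other tissues, had -0.44 ± 0.21 and Slc25a39, a mitochondrial carrier gene, -0.35 ± 0.17 (SD, n = 6 each). Alad, the gene of the next enzyme of the pathway, had -0.29 ± 0.14, Tmem14c, a porphyrin transporter gene, -0.28 ± 0.10 and Fech, the gene of the enzyme that inserts iron, -0.26 ± 0.20 (SD, n = 6 each; limma adjusted p of 0.0137, 0.00996 and 0.049). The riser was Abcb6, a porphyrin transporter gene, at 0.46 ± 0.18 (SD, n = 6). Ppox and Abcb10 did not pass, at 0.17 and 0.08.

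The fall of the heme list held under some settings and not under others. With centred arrays 5 of 8 genes were called as lower, against 15.2% of all features. The count was also 5 of 8 with every array on its own, complete replicates or robust moderation, and 4 of 8 with top values kept. Without eye replicates 1 and 2, which leaves 4 samples, 1 of the 8 genes was called as lower, Alas1, and Abcb6 as higher. Over all features 6.73% were lower in that fit. With sighted RNA in Cy5 only, 0 of 8 were called as lower, against 3.12% of all features, and Alad, Fech, Slc25a39 and Tmem14c turned to 0.05, 0.03, 0.05 and 0.07. With sighted RNA in Cy3 only, 5 of 9 were lower and 0 higher, against 20.8% lower of all features. The arrays of these single-orientation fits were not centred. With any 1 replicate left out Fech lost its call. The other 4 fallers and Abcb6 kept theirs with each replicate left out.

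Of 10 red cell membrane and cytoskeleton genes in eye, Dmtn, which encodes dematin, an actin-bundling protein of the red cell membrane and of other cells, was the only one called, at -0.65 ± 0.44 (SD, n = 6; limma adjusted p 0.013). The list's median was -0.03. The others did not pass, among them Sptb, the beta spectrin gene of the red cell, at 0.08 ± 0.09, Ank1, erythrocyte ankyrin, at -0.06 ± 0.35, and Rhd, a blood group antigen gene, at -0.09 ± 0.23 (SD, n = 6 each). Of 15 erythroid regulators and enzymes, 0 fell and 1 rose in limma. The riser was Cdkn1b, a cell cycle inhibitor gene used in many cell types, at 0.36 ± 0.30 (SD, n = 6), which lost its call without replicates 1 and 2 (adjusted p 0.0536) and with replicate 1, 3, 4, 5 or 6 left out. Klf1, the erythroid Krueppel-like factor gene, had 0.00 ± 0.27 and Gata1, the erythroid GATA factor gene, 0.18 ± 0.17 (SD, n = 6 each), and neither passed. The shares called in these lists, 10.0 and 6.67%, were below the 26.7% of all features. Called as lower were 10.0 and 0%, against 10.9% of all features.

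**Figure D4:**
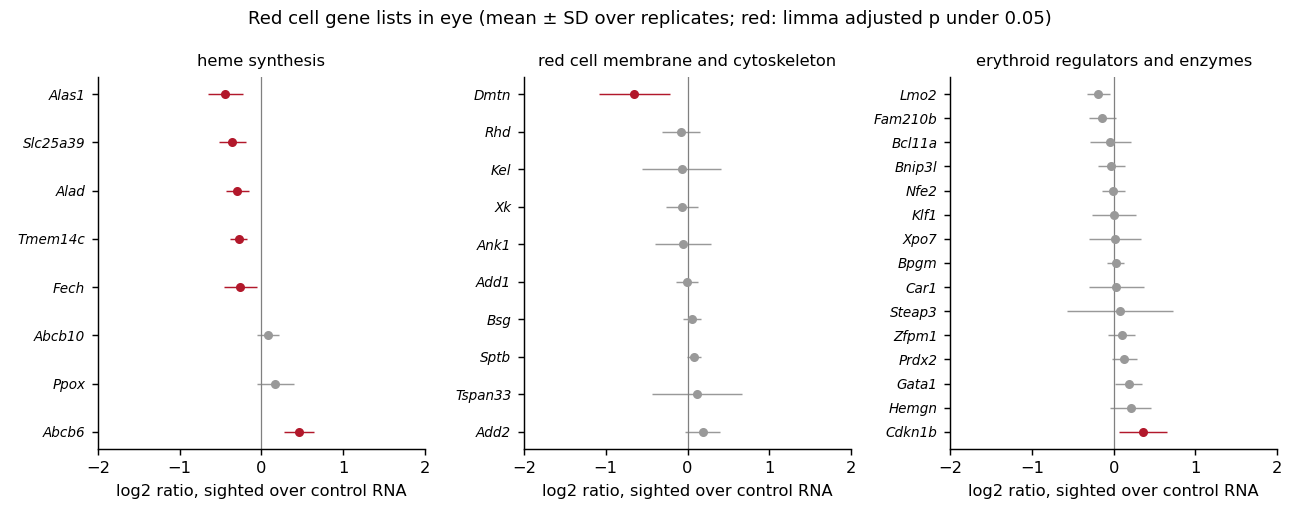
Mean log2 ratio of sighted over control RNA in eye (horizontal axis) with its SD over replicates for the genes of 3 red cell lists (rows). Red marks a limma adjusted p under 0.05. Red and below 0 are 5 of 8 heme synthesis genes, 1 of 10 membrane genes and 0 of 15 regulators and enzymes. Of all features 10.9% were called as lower. Abcb6 and Cdkn1b are red and above 0. With sighted RNA in Cy5 only, 0 of the 8 heme synthesis genes were called as lower.

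Of the other globins, Mb, the myoglobin gene of muscle, fell, at -0.68 ± 0.26 (SD, n = 6), and Ngb, the neuroglobin gene of neurons, rose by 0.40 ± 0.33 (SD, n = 6). Cygb, the cytoglobin gene, did not pass, at -0.04 ± 0.26. These are 2 of 3 genes called, against 26.7% of all features. Mb had -0.27 with sighted RNA in Cy5 only, which did not pass (adjusted p = 0.149), and -1.08 in Cy3 only. On arrays with sighted RNA in Cy3 only, Ngb turned to -0.04. Of 9 genes for globin and heme clearance, Blvrb, a biliverdin reductase gene that is also high in red cells, had -0.41 ± 0.29 and Blvra, the main adult biliverdin reductase gene, 0.23 ± 0.10 (SD, n = 6 each). This is 22.2% of the list, against 26.7% of all features. Blvra was at -0.09 on the Cy3 arrays alone, and neither was called without replicates 1 and 2 (adjusted p 0.142 for Blvrb and 0.115 for Blvra).

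Markers of other blood and vessel cells were read beside the red cell genes in eye, and their part in the result was not tested. Of 6 platelet genes 0 fell and 1 rose, Ppbp, a platelet chemokine gene, at 0.30 ± 0.19 (SD, n = 6), and the list's replicate medians lay between -0.19 and 0.20. Of 16 blood leukocyte genes 3 fell and 1 rose, with replicate medians between -0.15 and 0.04. Ltf, the lactoferrin gene of neutrophils and of glands, had -1.77 ± 0.39, Lyz2, lysozyme of myeloid cells, -0.50 ± 0.35, Cd3g, a T cell receptor chain gene, -0.25 ± 0.13 and Cd4 0.32 ± 0.24 (SD, n = 6 each). Of 16 endothelium and pericyte genes 3 fell and 1 rose, with replicate medians between -0.49 and -0.01. Tie1 had -0.42 ± 0.27, Egfl7 -0.39 ± 0.23, Flt4 -0.17 ± 0.06 (SD, n = 6 each) and Kdr, a receptor gene for vascular growth factor, 0.64 ± 0.49 (SD, n = 5). Of 7 plasma protein genes 2 fell, Apoc1 and Trf, at -0.29 and -0.27. The shares called in either direction in these lists, between 16.7 and 28.6%, were near the 26.7% of all features or below it. Called as lower were 0% of platelet, 18.8% of leukocyte, 18.8% of endothelium and 28.6% of plasma protein genes, against 10.9% of all features. The endothelium list had a median of -0.17, with 12 of 16 genes below 0. Of its genes 6 of 16 were called as lower with centred arrays, against 15.2% of all features. With sighted RNA in Cy5 only it was 0 of 17, against 3.12%. Lyz2 turned to 0.20 where values at the top of the range were kept, and Cd3g, Apoc1 and Trf turned to 0.05, 0.03 and 0.002 with sighted RNA in Cy5 only. Over all lists, 23 genes were called in eye. With each replicate left out in turn, 10 of them kept their call throughout and 13 lost it at least once. Those 10 were Mb, Abcb6, Alas1, Slc25a39, Tmem14c, Alad, Dmtn, Ltf, Egfl7 and Tie1. In a single dye orientation 9 of these 10 lost it, all but Ltf. With sighted RNA in Cy5 only, 8 were not called: Mb, Alas1, Slc25a39, Tmem14c, Alad, Dmtn at -0.40, Egfl7 at -0.14 and Tie1 at -0.12. Abcb6 was not called in Cy3 only, at 0.20 (adjusted p = 0.215). With a replicate left out, the highest limma adjusted p of each of the other 13 lay between 0.0575 and 0.135. Replicates 1 and 2, the low ones of the globins, were also the lowest of the platelet list, with medians of -0.02 and -0.19, where the other 4 lay between 0.07 and 0.20. They were the lowest of the heme synthesis list as well, at -0.26 and -0.43 against -0.24 to -0.07 in the others. The leukocyte list had -0.03 and -0.14 there, within the range of its other replicates. The endothelium list had -0.01 in replicate 1 and its lowest median, -0.49, in replicate 2. The red cell membrane list had its highest median, 0.17, in replicate 1 and its lowest, -0.22, in replicate 2. In replicates 1 and 2 the regulators and enzymes had 0.017 and -0.112, and the other globins -0.015 and -0.481. The clearance list had -0.124 and -0.01 there, and the plasma proteins -0.252 and -0.095. Low values in both replicates were thus not shared by all lists.

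In brain and heart 0 genes of any of these lists passed limma with both dye orientations averaged. In brain with sighted RNA in Cy3 only, 2 of 10 clearance genes were called as lower. So was 1 gene each of the membrane, platelet and leukocyte lists, beside 1327 called features in all. In Cy5 only, 1 gene each of the clearance, platelet and endothelium lists was called as higher, beside 736 called features. In brain Rhd, with the smallest p of the membrane list, had 0.30 ± 0.20, Fech -0.12 ± 0.12 and Tal1, an erythroid factor gene, -0.24 ± 0.20 (SD, n = 6 each; limma adjusted p = 0.959). For the remaining lists the gene of smallest p was Ngb at -0.17 ± 0.46 (SD, n = 5), Hmox2, a constitutive heme oxygenase gene, at -0.12 ± 0.12 (SD, n = 5), Ppbp at 0.12 ± 0.35, Cd52 at -0.25 ± 0.37, Emcn at 0.14 ± 0.18 and Apoa2 at 0.33 ± 0.37 (SD, n = 6 each). At an unadjusted limma p under 0.05 stood 2 of 12 membrane genes, 1 of 16 regulators and 1 of 8 plasma protein genes. This held for 0 of 8 heme synthesis genes and for no gene of the other lists, against 4.11% of all features. In heart Hmox1, which encodes the inducible heme oxygenase, had 0.88 ± 0.43 (SD, n = 3), Alas1 -0.16 ± 0.07, Add2, an adducin gene, -0.37 ± 0.23 and Zfpm1, a GATA1 cofactor gene, -0.26 ± 0.06 (SD, n = 4 each). The genes of smallest p in the other lists were Ngb at -0.46 ± 0.32 (SD, n = 3), Gp9 at 0.23 ± 0.29, Lyz2 at 0.66 ± 0.64, Cdh5 at 0.25 ± 0.15 and Ttr at -0.49 ± 0.17 (SD, n = 4 each). All limma adjusted p of these heart genes lay between 0.58 and 0.676.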

How the data were processed

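RNA of eye, brain and heart was measured on cDNA arrays with 2 colours. Per the labels' protocols, cDNA was made from total RNA and coupled to Cy3 or Cy5 by indirect labelling. The deposited values are log2 ratios of the 2 channels of an array, as judged from their range and signs. How arrays were scanned, corrected for background and normalized is not stated in the sources used here. Array medians ran from -0.055 to 0.539 in eye, 0.002 to 0.105 in brain and 0.042 to 0.217 in heart, so arrays were not all centred, and the scaling stays unknown. Most arrays repeat 1 value at the top of their range, 16.61 on every eye array and 15.918 to 17.47 elsewhere. These 4170 values were treated as missing. Arrays of 1 dye orientation correlated between 0.319 and 0.527 in eye, 0.0953 and 0.284 in brain and -0.000886 and 0.2 in heart. Brain array 3 is labelled Cy5 in either channel, and its sighted RNA was taken to be the Cy5 one.

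Of the probes, 12771 carried 1 gene symbol, 0 several and 8023 none, from GEO's platform annotation. Ratios were turned in sign where sighted RNA carried Cy3, probes of a gene were averaged, consecutive arrays were averaged to a replicate that needed both, and a gene could miss 1 replicate. The tests used limma 3.58.1 (R 4.3.3) for the mean of an organ against 0, two-sided, with Benjamini-Hochberg adjustment over all features. The fits were tested on simulated data. The members and lists were chosen with earlier results of these data known. The rule named up to 4 called genes per list by smallest p in eye, 1 by smallest p per list in brain and heart, and the 5 genes nearest to each member. Other genes named were chosen after their values were seen. Alternatives were every array on its own, centred arrays, top values kept, complete replicates, single probes, a single dye orientation, robust moderation and each replicate left out. The median over probes and the fit without eye replicates 1 and 2 were added after seeing the data.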

Additional observations from a re-analysis of the deposited data

Results flagged for a closer look

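The effect of sighted against control RNA differed between organs by the limma test of the difference. Eye minus brain was -1.87 for Hba-a1, -1.79 for Hba-x, -1.28 for Alas2 and -0.535 for Slc4a1. Eye minus heart was -1.92 for Hba-a1, -1.71 for Hba-x and -1.16 for Alas2.

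Single replicates lay far from the rest of their group in 5 of 30 groups checked, where chance marks about 1 group in 20 (30 groups that share probes and samples). Alas2 had -0.623 in heart replicate 2, with the other replicates between 0.081 and 0.146. Slc4a1 had 0.357 in heart replicate 4, with the others between -0.454 and -0.328. In brain replicate 3, Hba-a1 probes 15359, 15435 and 19752 had -0.65, -0.721 and -0.804, below the other replicates by more than the critical share of the range. These 3 probes share their target and samples.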

How the results depend on the processing

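In eye, Hba-a1, Hba-x and Alas2 kept their direction and their call under every alternative run, with log2 ratios between -2.26 and -1.31, -2.01 and -1.24, and -1.33 and -0.952. Slc4a1 lost its call with sighted RNA in Cy5 only, at -0.134 on arrays not centred, and kept it with centred arrays, at -0.461. Leaving out each replicate gave ranges of -2.17 to -1.70 for Hba-a1, -1.95 to -1.56 for Hba-x, -1.33 to -1.10 for Alas2 and -0.459 to -0.394 for Slc4a1. The count of features called in eye was 4239, with 6580 for Cy5 only, and 3256 to 4167 with a replicate left out. In brain 1 feature was called, with 6 for every array on its own, 0 with top values kept, 2 with a value needed in every replicate, 736 with Cy5 only, 1327 with Cy3 only and 0 to 1 with a replicate left out. In heart the count was 0 throughout.

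Small values outside the eye changed sign. Hba-x in brain turned to 0.00142 with centred arrays and 0.166 with Cy3 only, and ran from -0.0484 to 0.0428 with a replicate left out. Hba-a1 in brain turned to 0.0135 with Cy5 only and ran from -0.176 to 0.0275. In heart, with Cy3 only, Hba-a1 turned to 0.0598, Hba-x to 0.254, Alas2 to 0.278 and Slc4a1 to 0.106, and Hba-a1 to 0.153 with probe 15423. With a heart replicate left out Hba-a1 ran from -0.274 to 0.156, Hba-x from -0.233 to 0.0393 and Alas2 from -0.137 to 0.119. Among list genes with a single orientation or a replicate left out, in eye Slc25a39 turned to 0.0527, Tmem14c to 0.0688, Alad to 0.051, Fech to 0.0307, Cd3g to 0.0485, Apoc1 to 0.0257, Trf to 0.00208, Ngb to -0.0435 and Blvra to -0.0897. Lyz2 turned to 0.204 with top values kept. In brain Tal1 turned to 0.279, Hmox2 to 0.732, Ppbp to -0.287, Emcn to -0.00833 and Ngb to 0.322 or 0.0107 (-0.291 to 0.0107 with a replicate left out), and in heart Cdh5 to -0.0212 and Gp9 to -0.0667. The causes were not tested.

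For differences between organs, it is not labelled whether samples with the same replicate number come from the same mouse. Deviations of the same number correlated between -0.0435 and 0.0418. This cannot decide the question, since noise of the arrays can hide a pairing. With the replicate number as a block, 197 features differed in eye minus heart against 2806, and 0 in brain minus heart against 336. The calls of the 4 genes were the same with the block, and Hba-a1 turned to 0.0112 in brain minus heart. With each organ's own spread 2648 features differed in eye minus brain against 1544, 544 in eye minus heart and 0 in brain minus heart. Brain minus heart ranged from 7 to 433 features with a replicate left out. Eye minus brain lost its call for Hba-a1 with probe 15423 alone, at -1.47, and for Slc4a1 it ran from -0.613 to -0.424. Brain minus heart turned to 0.0888, 0.0486, 0.0617, 0.0273 and 0.011 with 5 single Hba-a1 probes, and with a replicate left out ran from -0.316 to 0.0972 for Hba-a1, -0.0877 to 0.208 for Hba-x and -0.0365 to 0.202 for Alas2. Depth is not known for these arrays, and their number limits the precision.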
